A study of Drosophila melanogaster with 8 samples.

Results

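HeT-A is a retrotransposon that lives at the ends of Drosophila chromosomes. It was the telomeric element measured here, in wild-type ovaries and in ovaries of egt null alleles. The mutated gene is taken to be Boot, a germline factor of the piRNA pathway. Transposon rows were chosen by name, taking HeT-A, TAHRE and every name that begins with TART. The rule found 1 row, HeT-A, among 175 transposon rows and 18959 genes and transposons. TAHRE, TART-A, TART-B and TART-C, which make up the other 4 of the 5 names searched, are not analysed here. The rule itself reads names and no values, although the family was picked with earlier results of these data known.

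Ovaries were dissected from Drosophila melanogaster of the laboratory wild-type strain Oregon-R and compared with ovaries of flies carrying either egt17 or egt8, which the labels call null alleles. The genetic background of the egt flies is not stated here, so null genotype and strain background cannot be told apart in any difference below. All flies were kept at 25 degrees. For total RNA as for small RNA there were 4 libraries, 2 of wild type and 1 of each allele, so the null genotype has 2 replicates that differ in allele. The labels name no age, no pooling of animals and no separate cultures, so each p-value reflects how far these few libraries differ among themselves, which may be technical.

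Flies have no telomerase. Their telomeres are tandem arrays of the non-LTR retrotransposons HeT-A, TAHRE and TART, which transpose onto chromosome ends and so replace the DNA lost there. HeT-A encodes a Gag protein but no reverse transcriptase, whereas TART and TAHRE encode both. In the germline these elements are held down by piRNAs, small RNAs bound by Piwi proteins, and many piRNAs come from genomic clusters whose transcripts Boot and the export receptor Nxf3 carry out of the nucleus. Some clusters lie in the repeats next to the telomeric arrays. In whole ovaries, more RNA per cell and more cells with the RNA cannot be told apart.

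Low values stepped in part by whole reads, which gave approximate depths in total RNA of 6.31 and 6.15 M reads for wild type 1 and egt17, and of 16.6 and 15.9 M reads for wild type 2 and egt8. Depth and expression paired the libraries in that order, wild type 1 with egt17 and wild type 2 with egt8. Log2 values across 8755 tested genes and transposons correlated at 0.966 and 0.948 within these pairs and at 0.901 between the wild types. The labels give no batch and no pairing. Ovary identity was checked on markers. All 10 germline markers had reads in every library, and their summed level ran from 936 to 1539 FPKM. Muscle markers, which come from the sheath around the ovary or from other tissue, summed to 240 and 51.0 FPKM in wild type 1 and 2, against 73.9 and 426 FPKM in egt17 and egt8. Of the 9 muscle markers 8 had reads in every library. The 8 genes listed as markers of hemocytes and fat body summed to 75.6 and 47.2 FPKM in wild type 1 and 2. In egt17 and egt8 they summed to 78.6 and 220 FPKM. Only 3 of the 8 were among the tested features, and 1, He, was at 0 throughout. The fat body genes Lsp2 and Fbp1 were at 6.88 and 1.49 FPKM in egt8 and at 0.207 FPKM or less in the other libraries. The 11 follicle cell markers summed to 6240 FPKM in egt17 and to between 16693 and 23717 FPKM elsewhere.

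Boot, the gene taken to be mutated, had a level of 88.6 and 89.7 FPKM in the wild types, against 40.6 and 52.1 FPKM in egt17 and egt8. Both null libraries lay below both wild types, and Boot RNA remained detectable in each. The log2 difference of -0.94 ± 0.32 (SE, n = 2 against 2) had a limma adjusted p of 0.9999, or 0.164 when the library pair entered the fit as a term. That the allele name egt refers to Boot was assumed from the series title.

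HeT-A RNA was near the floor in wild type and abundant in both null alleles. Its level was 0.858 FPKM in wild type 1 and 1.30 FPKM in wild type 2, whereas egt17 had 75.7 FPKM and egt8 had 174 FPKM. FPKM scales fragments to the length of the element and to the size of the library. How reads with several matches were treated is not given, so comparisons of level between elements carry that limit. The groups did not overlap, and the lower null library was 58.4-fold above the higher wild-type library. The group means were 1.08 ± 0.310 FPKM in wild type and 125 ± 69.2 FPKM in the null alleles (SD, n = 2 each).

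Within each library pair the direction was the same. HeT-A was 88.2-fold higher in egt17 than in wild type 1 and 134-fold higher in egt8 than in wild type 2. On the log2(FPKM + 1) scale these differences were 5.37 and 6.25, a gap of 0.88 between the alleles that cannot be tested with 1 library each. The 2 null libraries differed from each other by 2.29-fold and the 2 wild types by 1.51-fold, with the deeper pair the higher one in both groups. The order of the levels was thus wild type 1, wild type 2, egt17 and egt8, and the step between genotypes exceeded the steps within them. The muscle sum and the hemocyte and fat body sum were highest in egt8, at 426 and 220 FPKM. In egt17 these sums were 73.9 and 78.6 FPKM, within and just above the wild-type range. The follicle cell sum, in contrast, was lowest in egt17, at 6240 FPKM against 16693 FPKM in the lower wild type. In egt8 it was within the wild-type range at 17290 FPKM. The 11 follicle cell markers went both ways, with 7 pooled log2 differences above 0 and 4 below. Their median log2 difference was -0.56 for egt17 against wild type 1 and 0.71 for egt8 against wild type 2. The part of these marker differences in the HeT-A values was not tested.

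The pooled log2 difference of HeT-A was 5.81 ± 0.55 (SE, n = 2 against 2), higher in 2 of 2 alleles, and ranked 4 by size among the 8755 features tested. Limma, a linear model with variances shared across genes, gave an unadjusted p of 0.000142 and a Benjamini-Hochberg adjusted p of 0.414, so HeT-A did not pass the threshold of 0.05. That fit called 0 features (0.00% of those tested), and 166 (1.90%) had an unadjusted p under 0.05. The spread in this fit holds the difference between the library pairs. With a term for the pair, the SE of HeT-A was 0.28 and the limma adjusted p was 0.00324, where 13 features (0.148%) passed and 9 (0.103%) passed as higher. That fit leaves 1 residual degree of freedom, and its pairs come from the data and not from the labels. By size alone 136 features (1.55%) had an FPKM in both alleles at least 2-fold above that of both wild types, and HeT-A was among them.

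**Figure D1:**
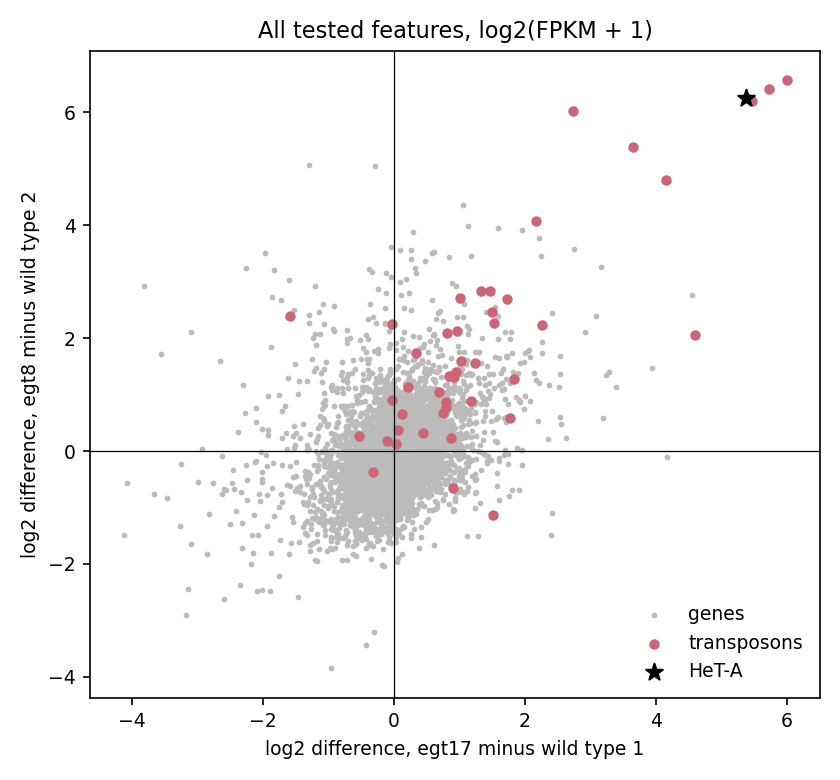
Log2(FPKM + 1) difference of every tested feature in egt17 against wild type 1 (x axis) and in egt8 against wild type 2 (y axis). Grey points are genes, red points transposons and the star HeT-A, which lies at 5.37 and 6.25 in the upper right corner among a few other transposons.

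HeT-A was among the most abundant transposons in the null libraries. Among 121 transposon names without a prefix for another species it ranked 21 in wild type 1 and 23 in wild type 2 by FPKM, and 3 in both egt17 and egt8. The most abundant element was copia in both wild types, at 15.4 and 71.5 FPKM, and 3S18 in both alleles, at 80.9 and 332 FPKM. HeT-A made up 0.933% and 0.696% of the summed transposon FPKM in wild type 1 and 2, against 11.8% in egt17 and 10.8% in egt8. Its level differed more than 2-fold between the alleles while its share was similar, since the summed transposon FPKM was 641 in egt17 and 1601 in egt8. In wild type the sums were 92.0 and 186 FPKM.

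Among all 18959 features, HeT-A was above 54.2% in wild type 1 and 57.6% in wild type 2. In the null alleles it was above 92.1% in egt17 and 97.7% in egt8. The wild-type places are near the middle of a list in which many features are at 0, and the null places are among well expressed genes. For scale, piwi, which encodes the nuclear Argonaute that silences transposons, reached 34.1 and 79.5 FPKM in egt17 and egt8, below HeT-A in both libraries. In wild type piwi stood at 41.3 and 63.3 FPKM, well above HeT-A.

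The table also holds 4 telomeric rows named for other species. Rows for HeT-A of D. yakuba and for HeT-A and TART of D. virilis were listed at 0 in all 4 libraries. The row for TART of D. yakuba, a close relative of D. melanogaster, was not. Its level was 0.468 and 1.05 FPKM in the 2 wild types against 1.96 and 12.5 FPKM in egt17 and egt8. Both alleles lay above both wild types, by 4.19-fold in the first pair and 11.9-fold in the second. The log2 difference was 1.87 ± 0.83 (SE, n = 2 against 2), with a limma adjusted p of 0.9999 and one of 0.261 with the pair term. The flies are D. melanogaster, so which element gave these reads was not tested, and the row is not taken as a measure of any TART subfamily. The 2 alleles differed 6.39-fold in it, against 2.29-fold in HeT-A.

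HeT-A belongs to the jockey clade of non-LTR elements, and in the null ovaries the levels of its relatives elsewhere in the genome were far below the level of HeT-A. Of 21 names listed for that clade, 19 had a row, and 9 of these stayed under 1 FPKM in every library. In 5 of the 19 both alleles were above both wild types and in 0 below, where 11.7% and 9.48% of all features above 0 did so. Over all 121 transposon names the counts were 51 above and 5 below. The 5 of the clade were Juan, jockey, G5, G6 and BS. Juan, an element scattered over the chromosome arms, was highest of the list, at 1.31 and 2.56 FPKM in the wild types against 10.02 and 15.7 FPKM in egt17 and egt8. Its log2 difference of 2.24 ± 0.51 had a limma adjusted p of 0.9999 and one of 0.110 with the pair term. The element jockey was at 0.441 and 1.07 FPKM in the wild types against 2.40 and 5.13 FPKM in egt17 and egt8.

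The groups were not separate in the other 14 rows, of which Doc and F-element were the highest. Doc was at 2.21 and 6.23 FPKM in the wild types against 2.27 and 6.84 FPKM in egt17 and egt8, so its values followed the library pairs. F-element was at 0.773 and 1.52 FPKM in the wild types against 1.24 and 7.39 FPKM in egt17 and egt8, and its groups overlapped. For the 8 members that passed the filter on low values the median log2 difference was 1.06, beside -0.06 over all tested features and 1.18 over the 43 tested transposons. Elements such as G5 and G6 were under 1 FPKM in both wild types and passed only through the null libraries, so this median describes them and supports nothing. Limma called 0 of the 8 over all features, with or without the pair term, and 3 had an unadjusted p under 0.05 without it. The shares of all tested features were 0.00% without the pair term, 0.148% with it and 1.90% for the unadjusted p.

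The list of I, R1 and R2 type elements, non-LTR elements of other clades, had 10 rows, 7 of them under 1 FPKM in every library. In 5 of the 10 both alleles were above both wild types and in 1 below, beside the 51 and 5 of 121 over all transposon names and 11.7% and 9.48% over all features above 0. The I-element, known for hybrid dysgenesis, was at 1.24 and 1.75 FPKM in the wild types against 4.60 and 18.7 FPKM in egt17 and egt8, a log2 difference of 2.08 ± 0.72. R1A1-element, which inserts into ribosomal RNA genes, was at 0.207 and 0.472 FPKM in the wild types against 0.152 and 0.141 FPKM in the alleles. No test of HeT-A against these lists was made.

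**Figure D2:**
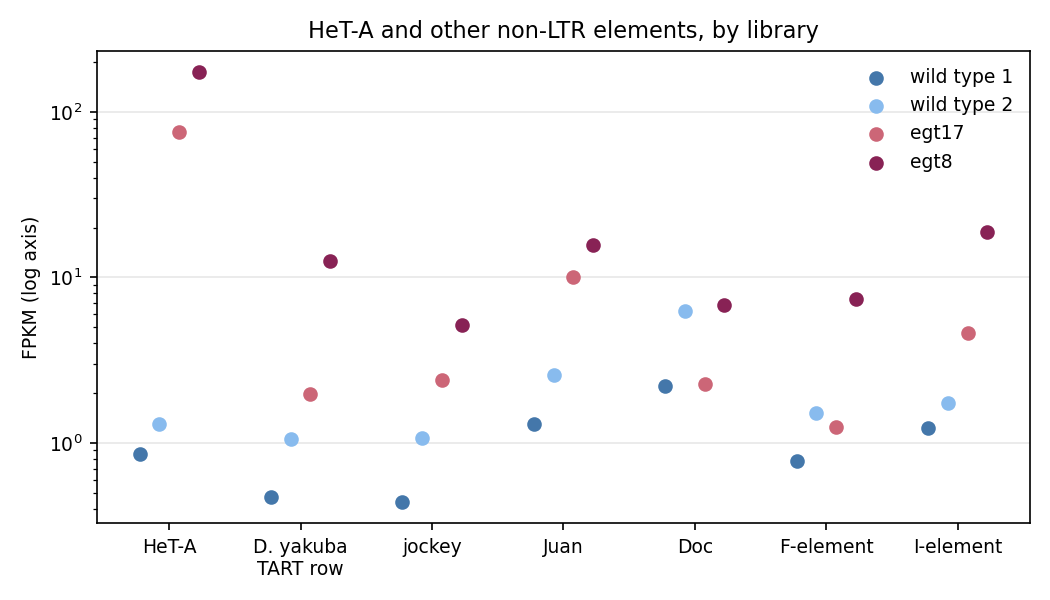
FPKM on a log axis in each of the 4 total RNA libraries for HeT-A, the TART row named for D. yakuba and 5 other non-LTR elements, 1 point per library. HeT-A goes from 0.858 and 1.30 FPKM in wild type to 75.7 and 174 FPKM in the alleles, whereas Doc shows the library pairs and no separation by genotype.

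The profiles most like that of HeT-A over the 4 libraries belonged to LTR retrotransposons. Likeness was the Euclidean distance between log2(FPKM + 1) profiles after each was centred on its own mean, and the median distance over all tested features was 6.001. The nearest was blood, at a distance of 0.388, with 0.534 and 0.528 FPKM in the wild types against 66.6 and 112 FPKM in egt17 and egt8. Burdock followed at 0.499, Transpac at 0.875, HMS-Beagle at 1.33 and 3S18 at 1.41. All 5 had both alleles above both wild types and egt8 above egt17. HMS-Beagle was at 0.695 and 1.19 FPKM in wild type, close to HeT-A, and reached 29.2 and 60.4 FPKM in egt17 and egt8. A likeness over 4 libraries rests mainly on the single step between the genotypes.

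**Figure D3:**
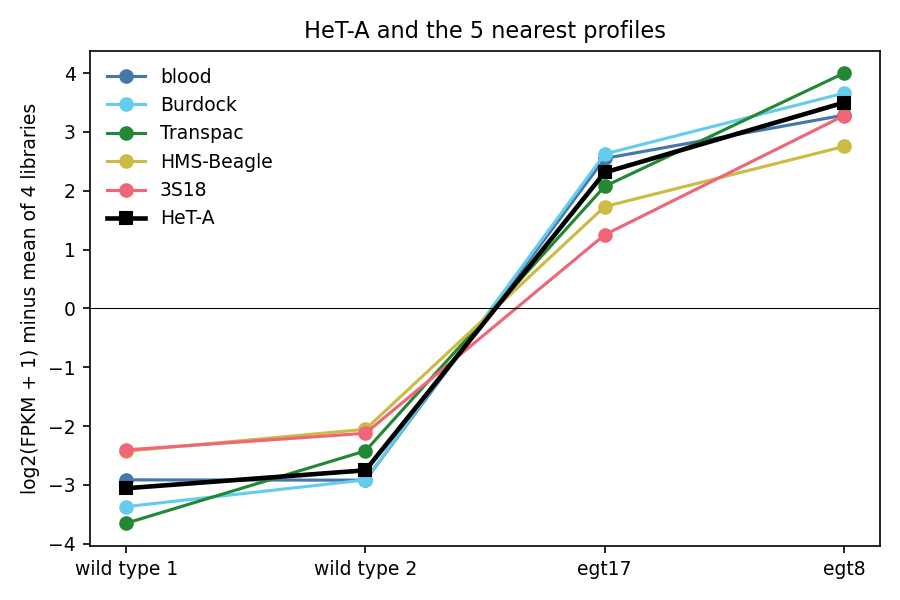
Log2(FPKM + 1) minus the mean of the 4 libraries for HeT-A (black squares) and the 5 features with the nearest profiles (circles), by library. All 6 lines are low in both wild types and high in both alleles, and egt8 is above egt17 in each.

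Limma called 0 of the 8 genes listed as protecting telomeres. It also called 0 of all 8755 tested features, so this count is not particular to them. In flies a complex called terminin caps the chromosome end without regard to its sequence. The log2 difference was below 0 for all 8 capping genes, and its median was -0.17 beside -0.06 over all tested features. In 1 of the 8, moi, both alleles were below both wild types, where 11.6% of tested features were. The gene cav, which encodes the capping protein HOAP, was at 35.96 and 57.6 FPKM in the wild types against 41.4 and 36.6 FPKM in egt17 and egt8. HipHop, its partner, was at 203 and 113 FPKM in the wild types against 223 and 93.6 FPKM in the alleles, so that it followed the library pairs. The gene for HP1a, a heterochromatin protein that coats telomeres, had a log2 difference of -0.04 ± 0.35.

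Genes for handling DNA ends lay on both sides of 0. Of 9 such genes 5 had a positive and 4 a negative difference, with a median of 0.0021. The nuclease gene mre11 was at 41.9 and 31.9 FPKM in the wild types against 50.9 and 32.3 FPKM in egt17 and egt8. Irbp, which encodes the Ku70 subunit that binds DNA ends, had the most negative difference of the 9, -0.50 ± 0.43, with 69.8 and 49.6 FPKM in the wild types against 54.6 and 31.4 FPKM in egt17 and egt8. Its groups overlapped.

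Of 18 genes for chromatin and transcription at telomeric arrays, 15 had a negative difference, with a median of -0.18. The gene prod, whose protein binds the HeT-A promoter region, was at 68.8 and 53.5 FPKM in the wild types against 60.8 and 37.1 FPKM in egt17 and egt8. The kinase gene JIL-1, known as a positive regulator of HeT-A, had a log2 difference of 0.26 ± 0.46. The methyltransferase gene egg, which acts downstream of Piwi, was at 29.0 and 27.4 FPKM in the wild types against 23.3 and 22.5 FPKM in the alleles, a log2 difference of -0.29 ± 0.35.

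The 19 genes for piRNA control and RNA decay had a median of -0.10, with 12 negative. Boot and moon, a transcription factor gene of the piRNA clusters, had the most negative differences. The RNA of moon was at 83.9 and 41.8 FPKM in the wild types against 29.5 and 26.1 FPKM in egt17 and egt8, a log2 difference of -1.07 ± 0.45. The gene aub, which encodes a cytoplasmic Piwi protein, was at 38.7 and 48.2 FPKM in the wild types against 50.6 and 61.9 FPKM in egt17 and egt8. The gene twin, for the CCR4 deadenylase that shortens poly(A) tails, had -0.29 ± 0.33. Nxf3, the export partner of Boot, had 0.15 ± 0.45.

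Over the 4 lists, all 54 genes passed the filter. Limma called 0 of the 54 over all features, with or without the pair term, and 1, Boot, had an unadjusted p under 0.05. Over all tested features limma called 0.00%, or 0.148% with the pair term, and 1.90% had an unadjusted p under 0.05. Both alleles were below both wild types in 9 (16.7%) and above them in 2 (3.70%), where 11.6% and 9.34% of all tested features were. The 9 were moi, mus304, egg, Pc, moon, Boot, mael, twin and Pop2, and the 2 were Su(var)3-9 and aub. None of the 54 was 2-fold higher or 2-fold lower in both alleles, where 1.55% and 0.662% of all tested features were. Whether the levels of these genes bear on that of HeT-A was not tested.

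**Figure D4:**
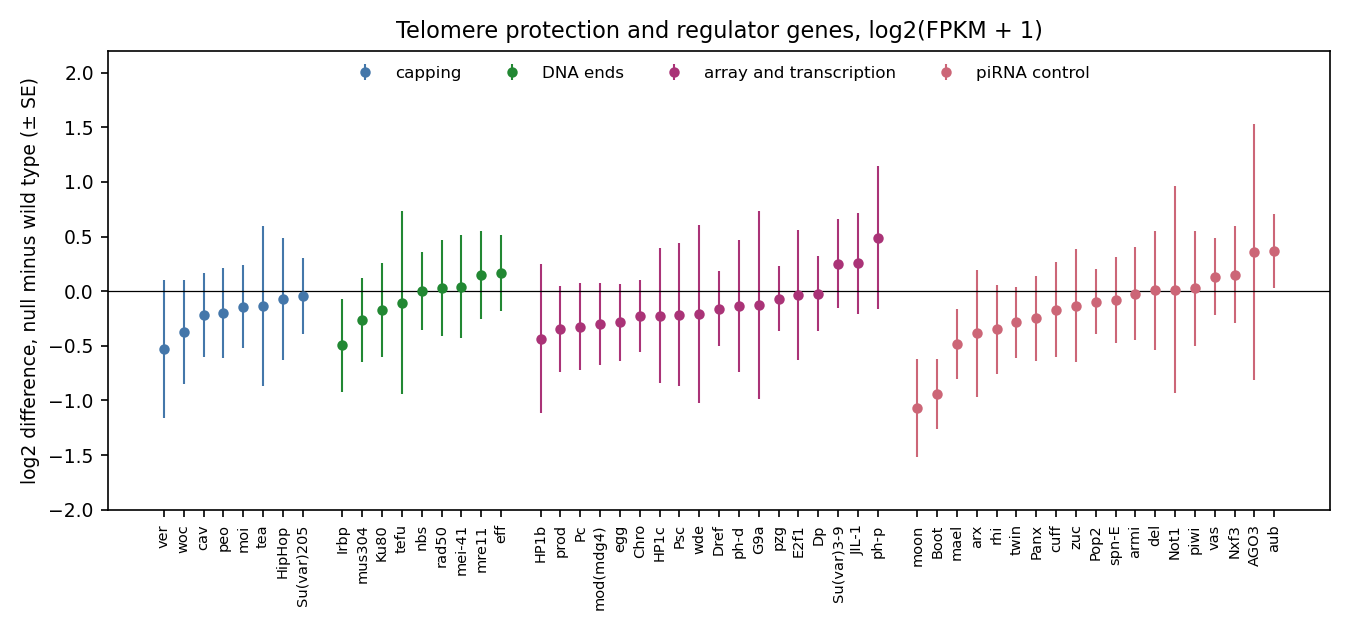
Log2(FPKM + 1) difference between null alleles and wild type (points, with SE from limma as bars, n = 2 against 2) for 54 genes in 4 lists of telomere protection and regulation. Most points lie within 0.5 of 0, and moon and Boot are the lowest.

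Small RNA was deposited for 94 genomic clusters and not for transposons, so small RNA that matches HeT-A itself was not analysed here. Clusters near the outer ends of chromosome arms are described instead. Whether they hold HeT-A sequence or give small RNA that matches HeT-A was not tested, so they do not measure it. Values were in RPKM, and scaling by length gave whole multiples of 1 read (tolerance 0.01) in all 94 clusters of every library, and from these came read numbers and depths of 19.6, 6.78, 22.9 and 5.99 M reads for wild type 1, wild type 2, egt17 and egt8. Within 100 kb of the first base or of the last annotated gene on the telomeric side lay 4 clusters, on 2L, 2R, 3R and 4. Another, on X, lay 107 kb from the first base and was added after seeing the data with a limit of 150 kb. Coordinates are those of the deposited table, dm6 per the submitters' processing notes.

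Small RNA fell at the ends of 2R and 3R. Cluster97 (2R, 25252435 to 25259156) reaches past the last annotated gene of the arm, and it went from 38.8 RPKM in wild type 1 and 57.2 RPKM in wild type 2 to 2.17 RPKM in egt17 and 2.86 RPKM in egt8. These values rest on 5109, 2604, 334 and 115 reads. It was 17.9-fold lower in egt17 than in wild type 1 and 20.01-fold lower in egt8 than in wild type 2. The log2(RPKM + 1) difference of -3.78 ± 0.44 (SE, n = 2 against 2), lower in 2 of 2 alleles, had a limma adjusted p of 3.27e-13 and was the most negative of 92 tested clusters. Ranks of clusters are on that scale, which understates changes of low clusters. By plain ratio cluster128, low and inside 2R, was 5.77-fold lower in egt17 and 114-fold lower in egt8, where it had 1 read.

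Cluster11 (3R, 32069446 to 32079308) lies wholly beyond the last annotated gene of its arm and had the second most negative difference. It was at 6.41 RPKM in wild type 1, 21.6 RPKM in wild type 2, 0.474 RPKM in egt17 and 1.63 RPKM in egt8, from 1239, 1447, 107 and 96 reads. The wild types themselves differed 3.38-fold. Within the pairs it was 13.5-fold lower in egt17 and 13.3-fold lower in egt8. The log2 difference was -2.72 ± 0.44 with a limma adjusted p of 1.86e-07. Without wild type 2 the difference was -1.91 and the limma adjusted p was 0.0768.

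The ends of 2L and 4 did not follow, and X had a smaller difference in the same direction. No cluster lay within 150 kb of the outer end of 3L. Cluster33 (2L, 2498 to 11131) was at 8.76 and 7.83 RPKM in the wild types against 12.8 and 7.95 RPKM in egt17 and egt8, a log2 difference of 0.26 ± 0.44. Cluster3 at the end of chromosome 4 was at 57.3 and 42.3 RPKM in wild type and at 42.9 and 62.3 RPKM in the alleles, with 0.07 ± 0.44. Cluster22 on X (107445 to 130991) had both alleles below both wild types, at 111 and 61.2 RPKM against 34.9 RPKM in egt17 and 46.8 RPKM in egt8. Its log2 difference of -1.01 ± 0.44 had a limma adjusted p of 0.0739, and of 0.0210 with the pair term.

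Small RNA was lower at most clusters and not at the arm ends alone. Over the 92 tested clusters the median log2 difference was -0.51. It was -0.87 for egt17 against wild type 1 and -0.14 for egt8 against wild type 2, and it moved to -0.26 without egt17 and to -0.83 without egt8. Limma called 20 (21.7%), 15 of them lower (16.3%) and 5 higher (5.43%). Both alleles were below both wild types in 49 clusters (53.3%). When each library was centred on its cluster median, 4 were called, 1 lower and 3 higher. Relative to that median the difference was -3.32 for cluster97 (limma adjusted p = 0.0130), -2.26 for cluster11 (0.139) and -0.55 for cluster22 (0.282), all adjusted p from limma. The fit without centring gave every cluster the same spread, so its p-values lean on the variance shared by all clusters.

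For comparison, 42AB, a major germline cluster, was 4.75-fold lower in egt17 and 1.67-fold lower in egt8 than the paired wild type. It was at 110 and 154 RPKM in the wild types against 23.2 and 92.2 RPKM in egt17 and egt8, a log2 difference of -1.47 ± 0.44 with a limma adjusted p of 0.00872. The cluster flam, which serves the somatic follicle cells and is read from 1 strand, was at 96.3 and 70.6 RPKM in the wild types against 125 and 109 RPKM in egt17 and egt8. The 2 clusters of the 38C region, cluster27 and cluster5, had log2 differences of -1.27 and -0.88, and those of the 80F and 20A regions had -0.55 and 0.02. The differences of cluster97 and cluster11 from these were not tested.

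**Figure D5:**
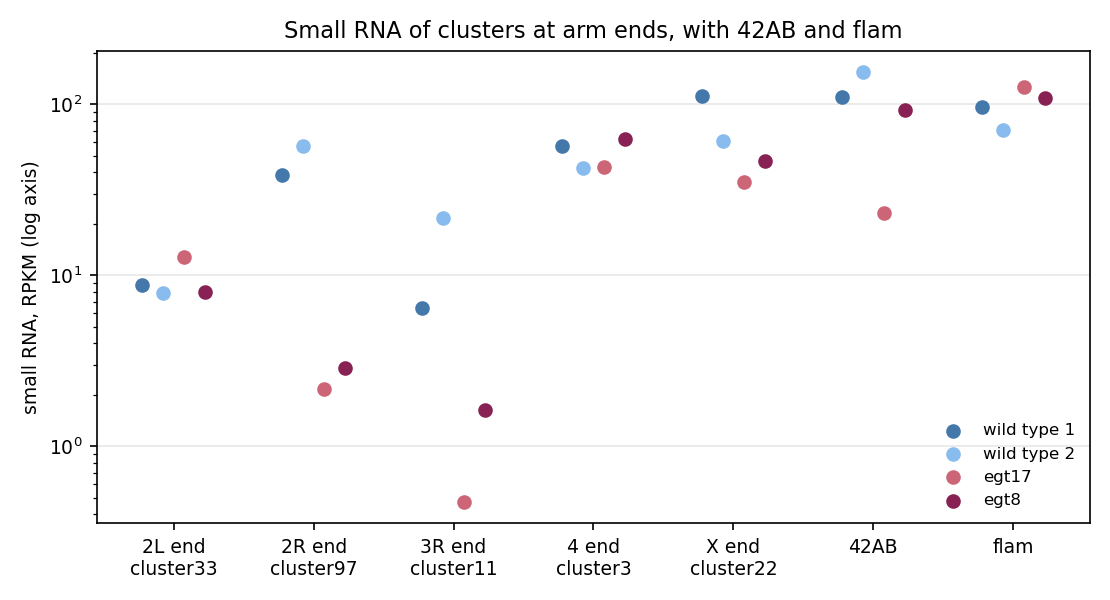
Small RNA in RPKM on a log axis, 1 point per library, for the 5 clusters at the outer ends of chromosome arms and for 42AB and flam. In cluster97 at the end of 2R and cluster11 at the end of 3R both alleles lie far below both wild types, at 2.86 RPKM or less.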

How the data were processed

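Ovary total RNA and small RNA were measured in 4 libraries each. The submitters' processing notes name Bowtie2 2.2.4 and dm6 and no role for either. How reads were counted, whether strand was used and how reads with several matches were treated, which matters for a repeated element, is not given in the sources used here. The deposited table of total RNA holds 35502 rows of FPKM from the authors, raised by 1 (no value was below 1), from which 1 was subtracted. Of 35327 transcript rows 32988 matched a gene, and transcripts of a gene were summed. For 94 clusters the deposited values were taken as RPKM from their whole-read steps. In total RNA 39.2% to 44.5% of checked low values were whole reads (tolerance 0.01), so depths there are approximate. Read numbers carry counting error only.

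Tests were run on 8755 features (1 FPKM or more in at least 2 libraries) and on 92 clusters (mean of 1 RPKM or more). Limma 3.58.1 (R 4.3.3) was fitted to log2 values after adding 1 and tested two-sided at 0.05, with Benjamini-Hochberg adjustment over all tested and a mean-variance trend for genes only. FPKM + 1 understates changes of low rows. HeT-A was at 1.30 FPKM in wild type 2 but at 0.858 FPKM in wild type 1. It passes the filter only with the null libraries counted, so its passing is no support. Named genes were HeT-A, Boot, members of the gene lists, the 5 features nearest to HeT-A in profile and clusters at arm ends, with 42AB, 38C, 80F, flam and 20A. Other LINE elements and marker genes are named as list examples. Members and lists were chosen with earlier results of these data known. The library pairs come from the data: across features, wild type 1 and egt17 deviated together from their groups (correlation 0.763), and with 2 libraries a group the other pair gives the same value. Alternatives changed the pseudocount, filter, scaling, trend, pair term, transcript sums and libraries. Tables and figures used Python 3.11.15, numpy 2.4.6, pandas 2.3.3 and matplotlib 3.10.9.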

Additional observations from a re-analysis of the deposited data

How the results depend on the processing

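HeT-A was higher in the null alleles under all 11 alternatives, with log2 differences from 5.21 (without egt8) to 6.63 (pseudocount 0.1). Its limma adjusted p was 0.335 to 0.9998 under 6 of them, and it passed with the replicate block of library pairs (5.81, limma adjusted p = 0.00324) and whichever library was left out (5.21 to 6.40, limma adjusted p from 3.55e-06 to 0.00741). The telomeric count was then 1. A fit without 1 library has a lone sample in a group, assumed to vary like the other, and leans on the pooled spread. Limma called 13 features with the replicate block and 3 to 9 without 1 library. Features at least 2-fold higher in both alleles numbered 515 with no filter, 39 at 5 FPKM, and 200 to 390 without 1 library. No gene of the 4 telomere lists was called under any alternative.

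In small RNA the clusters called numbered 13 with pseudocount 0.1, 33 with the replicate block, 4 when centred on the median and 2 to 46 without 1 library. Cluster97 passed under all 9 alternatives. Cluster11 passed under 7, but not without wild type 2 (-1.91) or when centred (-2.26). Without 1 library cluster33 ran from -0.053 (without egt17) to 0.57 and cluster3 from -0.19 (without egt8; -0.15 without wild type 2) to 0.33, none past the threshold. The causes were not tested. The count of clusters at arm ends was 4 within 50 kb and 5 within 150 kb.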

Other observations

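Genes near the outer arm ends were looked at after the results were seen. Of 85 annotated genes within 150 kb of the first base or of the last annotated gene on the telomeric side, 39 passed the filter. Both alleles were above both wild types in 8 of the 39 and below in 0, and limma called 0 of them, with or without the pair term, while 3 had an unadjusted p under 0.05 without it. Over all 8755 tested features 9.34% were above, 11.6% below and 1.90% under that unadjusted p. Limma called 0.00% of all tested features, and 0.148% with the pair term. Of the 8, lov and mthl8 (3L) were under 1 FPKM in both wild types, and lncRNA:CR45473 (X) in wild type 1. These passed the filter only with the null libraries counted, so the 8 against 0 supports nothing about arm ends. On 2R, the arm whose terminal cluster97 fell most, 3 of 12 genes passed the filter, and all 3 were at least 2-fold higher in both alleles, where 1.55% of all tested features were. The arm was singled out after the results were seen, and lov passed only because it was high in the null libraries. This count therefore supports nothing about the region. CG30428 (2R, 25251927 to 25254535), which overlaps cluster97, was at 1.07 and 1.24 FPKM in the wild types against 7.69 and 3.15 FPKM in egt17 and egt8. CG9380 (2R, 25183628 to 25255318), whose annotated span also reaches into the cluster, was at 2.32 and 1.01 FPKM in the wild types against 5.95 and 11.2 FPKM in egt17 and egt8. The gene lov, which encodes a BTB domain protein and lies further in, was at 0.250 and 0.178 FPKM in the wild types against 2.75 and 5.18 FPKM in egt17 and egt8, and passed the filter only through the null libraries. Limma adjusted p was 0.9999 for each of the 3 and 0.203 to 0.273 with the pair term.

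On 3R, where cluster11 fell, the 5 tested genes near the end had a median log2 difference of 0.07, and none had both alleles on 1 side of both wild types. The outermost, Map205, was at 25.5 and 91.1 FPKM in the wild types against 32.0 and 80.5 FPKM in egt17 and egt8, which follows the library pairs. Whether the genes of 2R differ from those of 3R was not tested.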
